A study of Mus musculus with 8 samples.

Results

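The E protein genes Tcf3, Tcf12 and Tcf4 and the Id genes Id1, Id2 and Id3 were followed by RNA-seq in mouse T-cell progenitors in which Stat5a and Stat5b had been targeted by CRISPR. These 6 genes were taken by symbol from the 24506 genes of the deposited count table, and all 6 were among the 13775 genes that passed the filter on low counts. Tcf3 encodes E12 and E47 (E2A), Tcf12 encodes HEB and Tcf4 encodes E2-2. Tcf4 is not one of the TCF/LEF genes that mediate Wnt signalling.

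E proteins are basic helix-loop-helix transcription factors that bind DNA as dimers at E-box motifs. Id proteins have the helix-loop-helix but lack the basic region that contacts DNA, so an E protein paired with an Id protein cannot bind. In the thymus E2A and HEB promote T-lineage gene expression and antigen-receptor gene recombination, Id3 is induced by receptor signalling, and Id2 is best known for its part in innate lymphoid and NK cell development.

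Bone-marrow progenitors came from mice that carried Cas9, a Bcl2 transgene and a Bcl11b-mCherry reporter, so every group had all 3 modifications. A retrovirus delivered 3 guides against Stat5a and 3 against Stat5b (sgStat5) or control guides (their target is not stated in the labels). Infected cells grew for 6 days on OP9-DLL1 stroma, which presents a Notch ligand, in medium with 10 ng/ml IL-7 and 10 ng/ml Flt3 ligand, and lineage-negative, CD25+ cells with the infection marker were sorted by the reporter. Cells with mCherry are called post-commitment and cells without it pre-commitment; the series' text calls the mCherry+ gate both reporter negative and post-commitment. The 4 groups were post-commitment sgStat5, post-commitment control, pre-commitment sgStat5 and pre-commitment control, with 2 libraries each. Nothing says that the 2 libraries of a group came from separate mice or cultures, so p-values measure the spread between these libraries.

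Libraries held 22146490 to 31209177 counts. In sgStat5 libraries Stat5a RNA lay between 105 and 116 CPM (counts scaled to library size), against 238 to 258 CPM in control libraries. Stat5b lay between 133 and 154 CPM in sgStat5 libraries and between 249 and 280 CPM in control libraries. Guide-cut alleles can still be transcribed, and RNA does not measure the protein. Bcl11b, the gene behind the gate, had 797 and 415 CPM in post-commitment sgStat5 libraries, 542 and 219 CPM in post-commitment control libraries, 132 and 70.1 CPM in pre-commitment sgStat5 libraries and 132 and 45.6 CPM in pre-commitment control libraries. All 10 T progenitor markers were detected in every library. Their summed level was 6252 and 5258 CPM in post-commitment sgStat5 libraries, against 7775 and 6078 CPM in post-commitment control libraries, and 4292 and 4165 CPM in pre-commitment sgStat5 libraries, against 5704 and 5014 CPM in pre-commitment control libraries. The sum was thus lower with sgStat5 in each of the 4 pairs of the same gate and replicate number, and its part in the guide results was not tested. Il2ra, between 1374 and 3152 CPM, and Tcf7, between 1004 and 1449 CPM, reached the highest levels of the 10 markers and weigh most in the sum. Bcl11b, also among the markers, was higher with sgStat5 in both post-commitment pairs. The sum therefore does not give the direction of each marker. In these bulk samples fewer cells of a type and less RNA per cell cannot be told apart.

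The sequence upstream of the transcription start is shown for Tcf12, Id3 and Id2. Tcf12 had an adjusted p under 0.05 in some tests of the guides and of the gates, and Id3 in some tests of the gates. Id2 was the Id gene with the highest level. Each line holds the 250 bases before the annotated start, from RefSeq on GRCm38.p6, written 5′ to 3′ on the gene's own strand, with every E-box (CANNTG) in capitals. The Tcf12 window is chr9:72111820-72112069 (minus strand), the Id3 window chr4:136143572-136143821 (plus strand) and the Id2 window chr12:25096093-25096342 (minus strand).
Tcf12: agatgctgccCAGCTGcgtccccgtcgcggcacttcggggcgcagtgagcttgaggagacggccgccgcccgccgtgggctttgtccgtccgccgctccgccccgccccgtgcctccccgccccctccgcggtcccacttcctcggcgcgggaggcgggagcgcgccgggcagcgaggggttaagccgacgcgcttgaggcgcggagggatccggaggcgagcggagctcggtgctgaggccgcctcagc
Id3: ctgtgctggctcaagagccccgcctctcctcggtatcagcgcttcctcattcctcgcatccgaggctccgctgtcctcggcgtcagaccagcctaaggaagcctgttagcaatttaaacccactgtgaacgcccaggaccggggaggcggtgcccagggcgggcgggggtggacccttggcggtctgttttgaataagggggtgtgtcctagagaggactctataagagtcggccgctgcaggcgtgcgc
Id2: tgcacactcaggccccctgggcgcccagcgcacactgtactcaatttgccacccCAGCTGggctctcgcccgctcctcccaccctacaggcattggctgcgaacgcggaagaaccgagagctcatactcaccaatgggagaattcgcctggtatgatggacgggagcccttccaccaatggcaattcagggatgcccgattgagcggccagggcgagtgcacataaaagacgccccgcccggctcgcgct
The Tcf12 and Id2 windows each held 1 E-box, of the form CAGCTG in both, and the Id3 window held 0. A second annotated Tcf12 start also had 1 E-box, another had 0, and the Tcf3 window had 1. An E-box was present in 66.23% of all 32841 promoter windows of this length, so its presence is common. The STAT motif TTCNNNGAA was searched on both strands and was not in any of the 6 windows read for these 4 genes, while 7.022% of all windows held it. A match describes letters in a window and does not show a binding site.

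Tcf12, Tcf3 and Tcf4 made up the E protein RNA in unequal amounts. Per transcript length, in the authors' FPKM (fragments per kilobase of transcript, scaled to depth), Tcf12 and Tcf3 were the high genes, Id2 came next, and Tcf4, Id1 and Id3 were lower. Tcf3 lay between 53.4 and 63.0 FPKM over the 8 libraries, the narrowest relative spread of the 6 genes. Tcf12 lay between 33.0 and 92.5 FPKM, and Id2 between 14.4 and 28.6 FPKM. Tcf4 lay between 4.92 and 7.96 FPKM, Id1 between 0.177 and 5.002 FPKM, and Id3 between 0.970 and 16.1 FPKM. The order of Tcf4, Id1 and Id3 differed between libraries, so these neighbours in the ranking cannot be ordered.

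**Figure D1:**
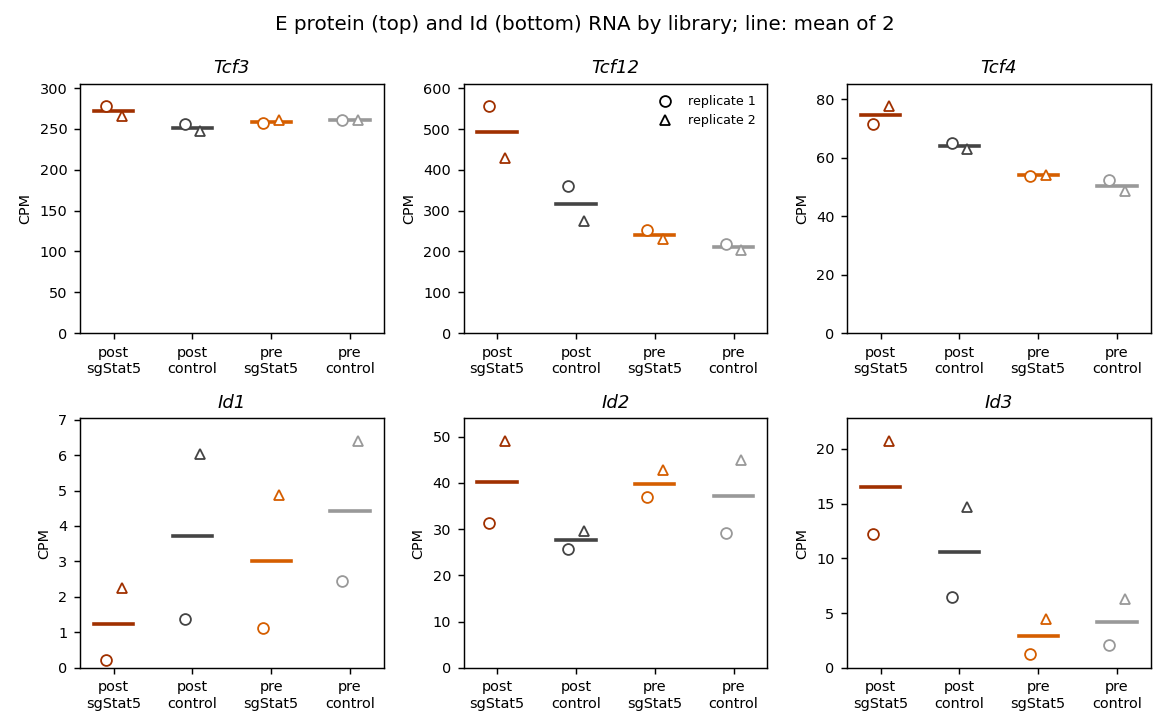
CPM of each E protein gene (top row) and each Id gene (bottom row), with the linear y axis starting at 0 in every panel. Circles are replicate 1, triangles replicate 2 and lines the mean of 2 libraries; Tcf12 was highest in both post-commitment sgStat5 libraries, at 556 and 429 CPM.

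Among the E protein genes only Tcf12 was called for the Stat5 guides, and only in some of the tests. It had 556 and 429 CPM in post-commitment sgStat5 libraries, against 360 and 275 CPM in post-commitment control libraries. Both sgStat5 libraries were above both control libraries, and within each replicate number the sgStat5 library had 1.55 and 1.56 times the control's level. The log2 fold change was 0.63 (SE 0.16), with an adjusted p of 0.154 from edgeR's quasi-likelihood test, which did not pass the threshold of 0.05. The replicate number marked a shared deviation in all groups, and once that number entered the test as a block the change was again 0.63 (SE 0.09), with an adjusted p of 0.00307. The Tcf12 change in post-commitment sgStat5 cells was thus called in the blocked edgeR test and not in the unblocked one, at the same size. DESeq2 without a block gave an adjusted p of 0.00432. The blocked call held without each of the 8 libraries in turn, with adjusted p-values between 0.00247 and 0.0452. Bcl11b, whose level also differs between the gates, was higher in the post-commitment sgStat5 library of both replicate numbers, at 797 and 415 CPM against 542 and 219 CPM in control libraries. Its part in the Tcf12 result was not tested.

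Before commitment Tcf12 had 252 and 231 CPM in sgStat5 libraries, against 219 and 205 CPM in control libraries. The groups again did not overlap, but the log2 fold change of 0.19 (SE 0.09 with the block) had an adjusted p of 0.443 with the block and 0.980 without it. The difference between the post-commitment and the pre-commitment effect was 0.45 (SE 0.13) with the block. Its unadjusted p was 0.00663 and its adjusted p 0.587, so a stage dependence of the Tcf12 effect was not called. Averaged over both gates the effect of the guides on Tcf12 was 0.41 (SE 0.06; adjusted p 0.00344) with the block and 0.41 (SE 0.12; adjusted p 0.147) without it.

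Tcf3 was close to level across the guides. In post-commitment cells it had 278 and 266 CPM with sgStat5 and 255 and 247 CPM with control guides. In pre-commitment cells it had 257 and 260 CPM with sgStat5 and 261 and 261 CPM with control guides. The groups did not overlap in either gate, but the distances were small: the log2 fold changes were 0.11 after commitment and -0.01 before it (SE 0.07 each with the block), with adjusted p-values of 0.365 and 0.968.

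Tcf4, best known for directing plasmacytoid dendritic cell development, had 71.5 and 77.5 CPM in post-commitment sgStat5 libraries, against 64.9 and 62.8 CPM in post-commitment control libraries. In pre-commitment cells it had 53.8 and 54.0 CPM with sgStat5 and 52.5 and 48.4 CPM with control guides. The sgStat5 libraries were the higher ones in both gates, without overlap. The log2 fold changes of 0.22 after commitment and 0.10 before it (SE 0.10 each with the block) did not pass, at adjusted p-values of 0.208 and 0.750. The 10 plasmacytoid dendritic cell markers summed to 93.4 to 307 CPM. Of these, Siglech, Klk1, Cd300c and Cox6a2 stayed below 1 CPM in every library, with Siglech at most at 0.135 CPM. The others were expressed: Pld4 lay between 2.84 and 220 CPM, Lair1 between 32.0 and 46.8 CPM, Runx2 between 21.8 and 50.3 CPM, Irf8 between 7.32 and 24.3 CPM, Ccr9 between 0.0321 and 22.2 CPM, and Spib between 0.418 and 18.5 CPM.

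Of the 3 Id genes, none was called for the guides in either gate taken alone, with or without the block. Id2 came nearest to a group separation: it had 31.2 and 49.0 CPM in post-commitment sgStat5 libraries, against 25.6 and 29.7 CPM in post-commitment control libraries. The ranges did not overlap, and the log2 fold change was 0.51 (SE 0.15) with the block, at an adjusted p of 0.0689, and 0.54 (SE 0.27; adjusted p 0.492) without it. Before commitment Id2 had 36.9 and 42.7 CPM with sgStat5 and 29.2 and 45.0 CPM with control guides, and the groups overlapped.

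Id3 had 12.2 and 20.7 CPM in post-commitment sgStat5 libraries, against 6.51 and 14.7 CPM in post-commitment control libraries. Before commitment it had 1.26 and 4.47 CPM in sgStat5 libraries, against 2.09 and 6.30 CPM in control libraries. The groups overlapped in both gates, while within each replicate number sgStat5 was the higher library after commitment and the lower one before it. Neither effect was called: with the block the log2 fold change was 0.72 (SE 0.26; adjusted p 0.141) after commitment and -0.57 (SE 0.29; adjusted p 0.474) before it. The counts behind the 4 pre-commitment values were 28, 121, 53 and 196, so these levels are the least precise beside those of Id1.

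Id1 was low throughout, with 0.221 and 2.26 CPM in post-commitment sgStat5 libraries, against 1.38 and 6.03 CPM in post-commitment control libraries. Before commitment it had 1.12 and 4.88 CPM with sgStat5 and 2.44 and 6.40 CPM with control guides. The groups overlapped in both gates, yet sgStat5 was the lower library in each of the 4 pairs of the same gate and replicate number, at 0.160 to 0.762 times the control's level. The blocked log2 fold change was -1.73 (SE 0.47; adjusted p 0.0580) after commitment and -0.77 (SE 0.45; adjusted p 0.545) before it. Averaged over the gates Id1 fell by 1.25 (SE 0.33; adjusted p 0.0409) with the block, and the change was -1.06 (SE 0.83; adjusted p 0.620) without it. The blocked call held in 1 of the 8 fits that left out a library, namely that without post-commitment sgStat5 replicate 2; its adjusted p ran from 0.0312 to 0.159 over these fits. The lowest library, post-commitment sgStat5 replicate 1, held only 5 Id1 counts.

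Over all genes, the share called for sgStat5 against control was 1.71% after commitment (8.22% with the block) and 0.269% before it (2.33% with the block). Averaged over the gates it was 2.88%, and 10.6% with the block. Against this background 0 of the 6 genes were called after commitment, and 1, Tcf12, with the block, while before commitment 0 were called in either fit. Averaged over the gates 0 were called, and 2, Tcf12 and Id1, with the block. For the difference between the gates 0% of all genes were called, with 0% also under the block, while 302 and 814 genes had an unadjusted p under 0.05 in these fits and DESeq2 called 2 genes.

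**Figure D2:**
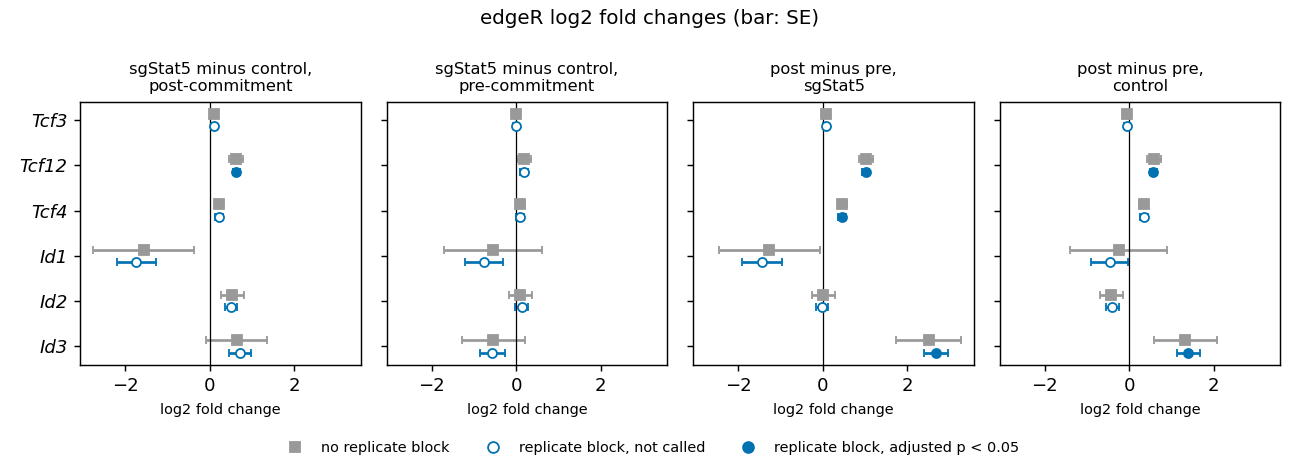
Log2 fold changes (x axis) of the 6 genes in 4 comparisons, with bars for the standard error; squares are edgeR without the replicate block and circles with it, filled where the adjusted p was under 0.05. With the block the Tcf12 circle is filled in 3 of the 4 panels, at 0.63, 1.02 and 0.57, and the Id3 circle in both comparisons of the gates, at 2.68 and 1.40.

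Between the gates, Tcf12 had 556 and 429 CPM in post-commitment sgStat5 libraries, against 252 and 231 CPM in pre-commitment sgStat5 libraries, without overlap. It rose by a log2 fold change of 1.03 (SE 0.17; adjusted p 0.0486), and by 1.02 (SE 0.09; adjusted p 0.000283) with the block. The unblocked call is close to the threshold and held in 2 of the 8 fits that left out a library, those without either post-commitment control library; the blocked call held in all 8. In control cells the same comparison gave 360 and 275 CPM after commitment, against 219 and 205 CPM before it. That change was 0.58 (SE 0.16; adjusted p 0.237) without the block and a rise of 0.57 (SE 0.09; adjusted p 0.00710) with it. Without control replicate 1 of either gate the blocked call was lost, with adjusted p-values up to 0.133.

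Id3 showed the largest fold change between the gates of the 6 genes. It had 12.2 and 20.7 CPM in post-commitment sgStat5 libraries, against 1.26 and 4.47 CPM in pre-commitment sgStat5 libraries, which is 9.73 and 4.64 times as much within replicate numbers 1 and 2. In control cells it had 6.51 and 14.7 CPM after commitment, against 2.09 and 6.30 CPM before it, or 3.12 and 2.33 times as much. The gates did not overlap in either guide arm. With the block Id3 rose by 2.68 (SE 0.29; adjusted p 0.000642) in sgStat5 cells and by 1.40 (SE 0.27; adjusted p 0.0156) in control cells, while without it the changes were 2.51 (SE 0.77; adjusted p 0.120) and 1.33 (SE 0.74; adjusted p 0.437). The blocked call in control cells was lost without control replicate 1 of either gate, with adjusted p-values up to 0.193. The summed level of 12 stromal markers was 288 and 694 CPM in post-commitment sgStat5 libraries, against 117 and 391 CPM in pre-commitment sgStat5 libraries. For control libraries the sum was 243 and 740 CPM after commitment, against 149 and 445 CPM before it. It was higher after commitment in all 4 pairs matched by guide and replicate number, and its part in the Id3 rise was not tested. The difference of the stage changes of Id3 is the same contrast as the difference of the guide effects, 1.28 (SE 0.39) with the block, with an adjusted p of 0.642.

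Tcf4 was also higher after commitment, at 71.5 and 77.5 CPM against 53.8 and 54.0 CPM before it in sgStat5 cells, and at 64.9 and 62.8 CPM against 52.5 and 48.4 CPM in control cells. The groups did not overlap in either arm. With the block it rose by 0.47 (SE 0.10; adjusted p 0.00922) in sgStat5 cells, where the unblocked adjusted p was 0.0765, and in control cells the change of 0.34 (SE 0.10) had an adjusted p of 0.0529. The blocked call in sgStat5 cells held in 6 of the 8 fits that left out a library, and was lost without pre-commitment sgStat5 replicate 1 or post-commitment sgStat5 replicate 2, with an adjusted p of up to 0.0760. The Tcf4 and Tcf12 levels ran together, with a Pearson correlation of 0.92 over the 8 libraries, which share 4 groups and 2 replicate numbers. The summed level of the plasmacytoid dendritic cell markers was 143 to 307 CPM in post-commitment libraries and 93.4 to 116 CPM in pre-commitment libraries; their part in the Tcf4 result was not tested.

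For Tcf3 a change with the gate was not detectable against the spread of the libraries, at log2 fold changes of 0.07 in sgStat5 cells and -0.06 in control cells (SE 0.07 each, with the block). Id2 had a change of -0.02 (SE 0.15) in sgStat5 cells and -0.40 (SE 0.15; adjusted p 0.115) in control cells with the block. In both arms the Id2 groups overlapped. Id1 was lower in the later gate in every pair of the same guide and replicate number, at 0.197 to 0.943 times the earlier level, but with the block its changes of -1.43 (SE 0.48) and -0.47 (SE 0.44) had adjusted p-values of 0.0595 in sgStat5 cells and 0.548 in control cells.

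Averaged over both guide arms, the edgeR test without the block called Tcf12 at 0.81 (SE 0.12; adjusted p 0.0171) and Tcf4 at 0.40 (SE 0.07; adjusted p 0.0259). Id3 reached 1.92 (SE 0.53; adjusted p 0.0584) and passed with the block at 2.04 (SE 0.20; adjusted p 0.000191). The unblocked Tcf12 call held in 3 of 8 fits without a library, those without either post-commitment control library or post-commitment sgStat5 replicate 2, and the Tcf4 call in 2 of 8, those without replicate 2 of either post-commitment group, while the blocked calls of Tcf12, Tcf4 and Id3 held in all 8. The share of all genes called between the gates was 0.973% in sgStat5 cells (22.8% with the block), 0.0145% in control cells (10.9% with the block) and 11.3% averaged over the arms (33.6% with the block). Of the 6 genes 1 was called in sgStat5 cells, 0 in control cells and 2 averaged over the arms, and with the block 3, 2 and 3.

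The make-up of the E protein RNA shifted with Tcf12. On the FPKM scale the ratio of Tcf12 to Tcf3 was 1.47 and 1.19 in post-commitment sgStat5 libraries, against 1.002 and 0.812 in post-commitment control libraries. It was 0.706 and 0.662 in pre-commitment sgStat5 libraries, against 0.597 and 0.572 in pre-commitment control libraries. The 4 groups did not overlap, and Tcf12 exceeded Tcf3 clearly in post-commitment sgStat5 cells alone. The summed E protein level was 163 and 139 FPKM in post-commitment sgStat5 libraries, against 118 and 103 FPKM in post-commitment control libraries; before commitment it was 103 and 98.2 FPKM with sgStat5 and 94.5 and 95.7 FPKM with control guides. These ratios are descriptions with no test, and isoforms with different start sites cannot be told apart in values per gene.

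Among the Id genes, Id2 supplied most of the FPKM in every library, between 51.6% and 92.0% of the sum. Id3 supplied 34.2% and 34.7% in post-commitment sgStat5 libraries and 24.1% and 34.1% in post-commitment control libraries. Its share was 4.19% and 10.8% in pre-commitment sgStat5 libraries and 7.90% and 13.6% in pre-commitment control libraries. The later gate thus held the larger Id3 share in both arms, without overlap, while the guide groups overlapped before commitment. The share of Id1 was highest at 14.3%, in post-commitment control replicate 2.

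The summed E protein level divided by the summed Id level separated the libraries by replicate number. It was 5.77 and 2.98 in post-commitment sgStat5 libraries, against 5.77 and 3.19 in post-commitment control libraries. Before commitment it was 4.46 and 3.19 with sgStat5 and 4.83 and 2.68 with control guides. Replicate 1 had the higher ratio in all 4 groups, and the guide groups overlapped in both gates.

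**Figure D3:**
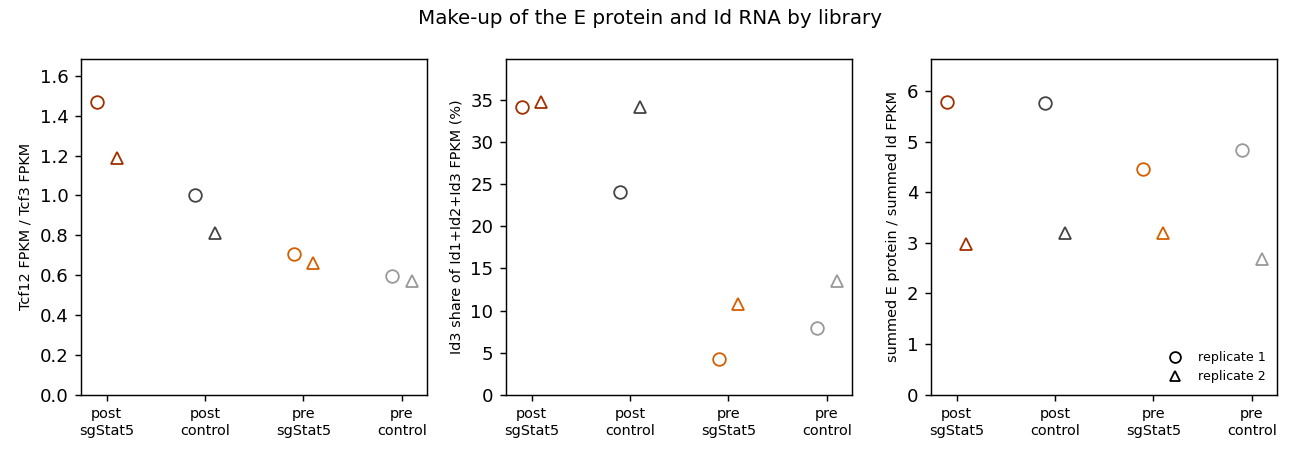
Ratio of Tcf12 to Tcf3 (left), Id3 as a percentage of the summed Id level (middle) and summed E protein over summed Id level (right), all from FPKM, with y axes from 0 and 1 point per library. Left, the post-commitment sgStat5 points at 1.47 and 1.19 lie above all others; right, circles (replicate 1) lie above triangles (replicate 2) in each group.

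Replicate 2 had more Id1 and Id3 RNA than replicate 1 in all 4 groups, by 2.62 to 10.2 times for Id1 and 1.69 to 3.55 times for Id3. For Id2 the factor was 1.16 to 1.57, for Tcf12 it was 0.764 to 0.935, and Tcf3 (0.959 to 1.01) and Tcf4 (0.923 to 1.08) hardly differed. The OP9 cells of the culture are stromal cells, and the summed level of 12 stromal markers was also higher in replicate 2 of each group. Of these markers Lum was at 0 in all 8 libraries and Dcn at 0 in 7, while Pdgfrb lay between 69.4 and 110 CPM. Most others ranged widely, with Col6a1 between 0.180 and 143 CPM, Bgn between 0 and 109 CPM, Cxcl12 between 0.899 and 95.1 CPM, and Col1a1 between 0 and 83.0 CPM. Without Pdgfrb, the other 11 summed to 194 and 609 CPM in post-commitment sgStat5 libraries, 146 and 656 CPM in post-commitment control libraries, 6.29 and 312 CPM in pre-commitment sgStat5 libraries and 44.4 and 375 CPM in pre-commitment control libraries. Within each guide arm and replicate number the post-commitment library held more stromal RNA, more Id3 RNA and less Id1 RNA. Within each group replicate 2 held more stromal, Id1 and Id3 RNA. The part of stromal RNA in the Id1 and Id3 results was not tested.

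**Figure D4:**
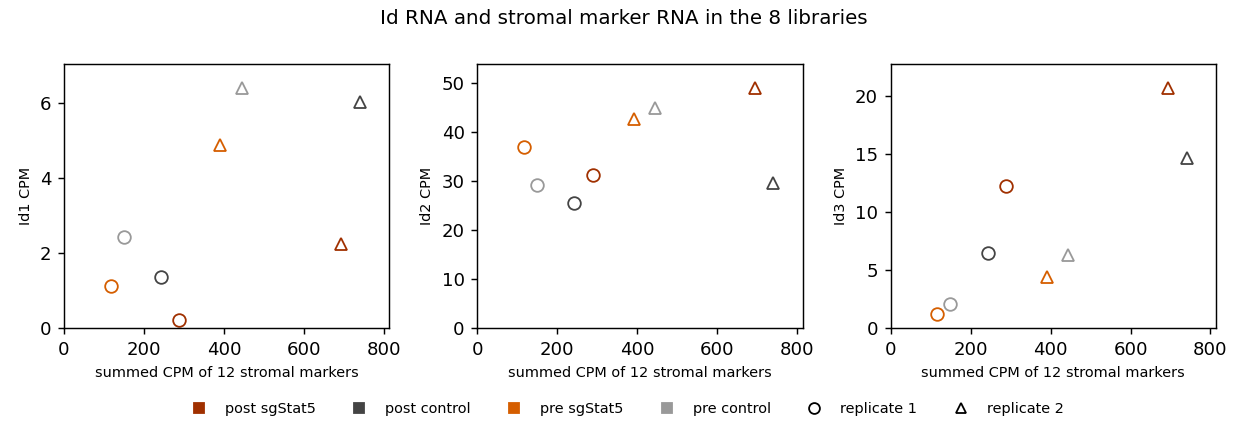
Id1, Id2 and Id3 levels (y axes, CPM) against the summed level of 12 stromal markers (x axis, CPM) in the 8 libraries, coloured by group, with circles for replicate 1 and triangles for replicate 2. Replicate 2 lies to the right of replicate 1 in each group, and the highest stromal sum, 740 CPM, is that of post-commitment control replicate 2, where Id3 was 14.7 CPM.

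Genes that E proteins are known to activate or regulate were mostly higher in the later gate. Of 18 listed targets 15 were tested, and between the gates 10 rose and 0 fell in sgStat5 cells with the block, and 9 rose and 0 fell in control cells, against 1 and 0 called without it. The median log2 fold change of the list with the block was 1.57 in sgStat5 cells and 1.13 in control cells, where the medians over all genes were 0.02 and 0.03 and the shares of all genes called 22.8% and 10.9%. The recombinase gene Rag1 had 518 and 220 CPM in post-commitment sgStat5 libraries, against 59.8 and 42.6 CPM in pre-commitment sgStat5 libraries. It rose by 2.75 (SE 0.18) in sgStat5 cells and by 1.83 (SE 0.18) in control cells with the block. Its partner Rag2 rose by 1.57 and 1.46, and Dntt, which encodes the template-free polymerase TdT, by 3.21 and 3.40 in the same fits. Foxo1, a transcription factor gene of lymphocyte survival and homing programmes, rose by 1.89 in sgStat5 cells with the block and by 1.89 (SE 0.25; adjusted p 0.0482) without it.

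For the guides, after commitment 6 of these targets rose and 1 fell with the block, before commitment 3 rose and 0 fell, and averaged over the gates 5 rose and 1 fell; without the block 1 rose in each gate, and 1 rose and 1 fell in the average. The list medians with the block were 0.53 after commitment and 0.28 before it, against -0.01 and -0.00097 over all genes, of which 8.22% and 2.33% were called with the block. The cytokine receptor gene Il7r, a listed target, had 240 and 236 CPM in post-commitment sgStat5 libraries, against 82.8 and 81.6 CPM in post-commitment control libraries. It rose by 1.53 (SE 0.15; adjusted p 0.00596) after commitment and by 1.58 (SE 0.15; adjusted p 0.0163) before it, both without the block. With the block Ptcra, the pre-T-cell receptor alpha chain gene, rose by 2.97 (SE 0.53) and Rag1 by 1.04 (SE 0.17) after commitment. Ptcra had 46.9 and 26.8 CPM in post-commitment sgStat5 libraries, against 12.1 and 1.097 CPM in post-commitment control libraries, which differed widely. For Rag1 these values were 518 and 220 CPM against 233 and 118 CPM, and the groups overlapped. In the unblocked edgeR test neither was called after commitment, at adjusted p-values of 0.339 for Ptcra and 0.401 for Rag1. Socs3, an inhibitor of cytokine signalling that is also a known STAT target, rose by 1.30 (SE 0.19) after commitment with the block. Its adjusted p in the unblocked edgeR test there was 0.156. The cell-cycle inhibitor gene Cdkn1a fell by 0.98 (SE 0.17; adjusted p 0.0304) in the average over the gates without the block.

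Class II partners, which pair with E proteins and bind DNA, were scarce: 4 of 18 passed the filter. Between the gates 2 of these fell in sgStat5 cells with the block and 1 in control cells, and 0 were called for the guides in either gate. Their median between the gates was -0.74 in sgStat5 cells and -1.33 in control cells with the block. Over all genes the medians were 0.02 and 0.03, and 22.8% and 10.9% were called in these fits. For the guides 8.22% of all genes were called after commitment and 2.33% before it. With 4 genes tested, the counts are too few to set against these shares. The unblocked fit called 0 of the 4 between the gates in either arm and 0 for the guides in either gate. Tal1, a haematopoietic stem and progenitor factor, had 1.99 and 7.75 CPM in post-commitment sgStat5 libraries, against 15.1 and 16.8 CPM in pre-commitment sgStat5 libraries. In control cells it had 2.76 and 5.68 CPM after commitment and 15.6 and 18.4 CPM before it. It fell by 1.87 (SE 0.39) in sgStat5 cells and by 2.09 (SE 0.38) in control cells with the block, and by 1.86 (SE 0.42; adjusted p 0.0391) averaged over the arms without it. Its relative Lyl1 fell by 1.16 (SE 0.22) in sgStat5 cells with the block.

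Of 16 tested cofactors and competitors for E-boxes, 2 rose and 0 fell for the guides after commitment with the block, and 0 were called before it. Their median was 0.24 after commitment and 0.06 before it with the block. Over all genes 8.22% and 2.33% were called in these fits. Without the block 0 of the 16 were called for the guides in either gate, and 0 between the gates in either arm. Ssbp2, a partner of LIM-domain-binding proteins, had 63.7 and 38.9 CPM in post-commitment sgStat5 libraries, against 28.2 and 23.7 CPM in post-commitment control libraries. It rose by 0.97 (SE 0.19) there with the block and by 0.95 (SE 0.16; adjusted p 0.0290) in the average over the gates without it. Zeb2, a zinc-finger repressor that binds E-box-like sites, rose by 1.21 (SE 0.31) after commitment with the block. Its adjusted p in the unblocked edgeR test there was 0.506. Between the gates 3 rose and 0 fell in each arm with the block, among them the acetyltransferase gene Crebbp, at 0.39 in sgStat5 cells and 0.38 in control cells. Over all genes 22.8% were called in sgStat5 cells and 10.9% in control cells in these fits, so 3 of 16 is near the background.

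Id4, BMP, TGF-beta and other inducers of Id genes formed a list of 18, of which 16 were tested. None of them was called for the guides in either gate with the block, and averaged over the gates 1 fell, Nfil3, an activator of Id2 in innate lymphoid development, by 0.62 (SE 0.13). Between the gates 3 rose and 0 fell in sgStat5 cells with the block, and 1 rose and 0 fell in control cells. The medians of 0.12 and 0.02 were near those of all genes. Over all genes 22.8% and 10.9% were called in these fits, so 3 and 1 of 16 are no more than the background. For the guides with the block these shares were 8.22% after commitment, 2.33% before it and 10.6% averaged over the gates. The unblocked fit called 0 of the 16 for the guides in either gate or on average, and 0 between the gates in either arm. Tgfbr1, a TGF-beta receptor gene, had 309 and 245 CPM in post-commitment sgStat5 libraries, against 201 and 189 CPM in pre-commitment sgStat5 libraries. It rose by 0.49 (SE 0.09) in sgStat5 cells and by 0.56 (SE 0.09) in control cells with the block. The signal transducers Smad3 and Smad4 rose by 0.41 and 0.34 in sgStat5 cells.

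Of 20 innate lymphoid genes linked to Id2, 18 were tested. With a median of 0.41 for the guides after commitment and 0.14 before it, 3 rose and 1 fell after commitment with the block, and 0 rose and 1 fell before it. Over all genes 8.22% and 2.33% were called in these fits, at medians of -0.01 and -0.00097. Without the block 0 of the 18 were called for the guides in either gate, and 0 between the gates in either arm. Il2rb, the IL-2 and IL-15 receptor beta chain gene, had 5.39 and 4.59 CPM in post-commitment sgStat5 libraries, against 11.3 and 12.5 CPM in post-commitment control libraries. It fell in both gates with the block, at log2 fold changes of -1.24 (SE 0.27) after commitment and -1.73 (SE 0.27) before it, and in the unblocked average, at -1.51 (SE 0.21; adjusted p 0.0138). The transcription factor genes Gata3 (also a T-lineage factor), Rora and Tox2 rose by 0.36, 1.13 and 3.12 after commitment with the block. Their adjusted p-values in the unblocked edgeR test were 0.141, 0.169 and 0.311. Tox2 was low, at 4.02 and 4.27 CPM in post-commitment sgStat5 libraries, against 0.191 and 0.968 CPM in post-commitment control libraries. Between the gates 3 fell and 0 rose in sgStat5 cells and 4 fell and 0 rose in control cells, all with the block, at medians of -0.53 and -0.30. Among them were Gzmb, which encodes a cytotoxic protease, at -2.39 and -2.09, and Zbtb16, which encodes PLZF, at -1.03 and -1.61. Over all genes 22.8% were called in sgStat5 cells and 10.9% in control cells in these fits, at medians of 0.02 and 0.03. The 3 of 18 in sgStat5 cells are thus no more than the background. The 10 NK and innate lymphoid markers summed to 128 and 187 CPM in post-commitment sgStat5 libraries, 174 and 285 CPM in post-commitment control libraries, 325 and 382 CPM in pre-commitment sgStat5 libraries and 452 and 536 CPM in pre-commitment control libraries. Gzmb, between 29.2 and 394 CPM, and Nkg7, between 90.2 and 127 CPM, made up most of these sums. Klrd1 reached at most 9.26 CPM, Il18r1 8.82 CPM, Klrk1 4.57 CPM and every other marker 1.48 CPM or less. The part of these markers in the Id2 values was not tested.

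The genes whose log2 CPM ran most like each E protein or Id gene over the 8 libraries were taken as the 3 with the highest Pearson correlation. For Tcf12 these were Stat2 (0.993), Ccdc97 (0.992) and Shisa5 (0.991). For Tcf4 they were Fam214b (0.983), Snx13 (0.980) and Gfra1 (0.974), and for Tcf3 Cfap54 (0.964), Ralgps1 (0.950) and Wasf2 (0.942). Id1 ran most like Atf4 (0.989), Rpl15 (0.987) and Dpagt1 (0.985). Id2 ran most like Tcam1 (0.967), R3hdm4 (0.931) and Serpina3h (0.928), and Id3 like Lama4 (0.969), Lama3 (0.968) and Hspb6 (0.965). Lama4, Lama3 and Hspb6 encode 2 laminin chains and a small heat-shock protein. Their mean levels over the 8 libraries were low, at 0.320, 0.574 and 3.14 CPM. Cfap54 (0.534 CPM), Tcam1 (1.48 CPM) and Serpina3h (1.93 CPM) were also low, so these correlations rest on few counts. The 8 points share groups and replicate numbers, so these correlations are descriptions.

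In the mm10 coordinates of the count table, Tcf12 spans chr9:71844252-72111819 and Tcf3 chr10:80409165-80433653, both on the minus strand. Id3 spans chr4:136143822-136145392 and Id1 chr2:152736251-152737410 on the plus strand, and Id2 chr12:25093799-25096092 on the minus strand. Tcf4 lies on chromosome 18, on the plus strand. No exon of the 6 genes overlaps an exon of another gene in the GENCODE vM21 annotation. The count and FPKM tables list different representative transcripts for Tcf12 and Tcf4, so the levels of these 2 genes per length depend on the transcript used.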

How the data were processed

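RNA-seq was available for 8 libraries in 4 groups, taken from the sample titles. The labels state the extraction and library kits; the kit named keeps no strand. The submitters' processing notes list RSEM 1.2.25, bcl2fastq 1.8.4 and STAR 2.4.0, with mm10 and GRCm38 as builds. The deposited counts per gene were unadjusted HOMER counts, per the file headers, and the authors' FPKM values came from the same program, per the file headers. The 6 genes and all gene lists were chosen with earlier results of these data known.

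Counts were tested with edgeR 4.0.16 (quasi-likelihood F-test, filterByExpr, TMM, 4 group means, 13775 genes, Benjamini-Hochberg over all of these, two-sided, threshold 0.05) in R 4.3.3. CPM is relative to the TMM-scaled library total, and values per group are single libraries or the mean of 2. The standard error of a log2 fold change is its size divided by the square root of F. For replicate 1, the deviations from the group means correlated at 0.421 to 0.578 in all 6 pairs of groups, so the replicate number was taken to pair the libraries and was also fitted as a block. This pairing comes from the data and shared numbers, not from a stated mouse or day. The common dispersion was 0.0853 without the block (4 residual degrees of freedom) and 0.0178 with it (3). The test was checked on simulated counts.

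Alternatives were DESeq2 1.42.0, limma 3.58.1 on log2(FPKM + 1) and log2(FPKM + 0.1), other scalings and filters, a fit of only the 4 libraries compared, and leaving out each library, in turn. Named genes were the 6 genes, up to 4 genes per list and comparison by lowest adjusted p, and the 3 most alike genes per member. Id1 and Id3 had the lowest counts, the largest differences between replicate numbers and the largest standard errors.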

Additional observations from a re-analysis of the deposited data

Results flagged for a closer look

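Of 34 values examined for a closer look, 2 stood out, both because the sgStat5 library lay below its control before commitment and above it after commitment in each replicate number. For Id3 the post-commitment minus pre-commitment difference of the sgStat5 effect was 1.18 on the log2 scale (SE 1.04; adjusted p 0.9998 by edgeR), and 1.28 with the replicate block (SE 0.39; unadjusted p 0.00930; adjusted p 0.642). Without 1 library the Id3 difference ran from 0.17 (without pre-commitment control replicate 2) to 2.38 (without pre-commitment sgStat5 replicate 2), and with the block from 0.93 to 1.69. Within replicate numbers 1 and 2 the sgStat5 to control ratio of Id3 was 1.88 and 1.41 after commitment and 0.603 and 0.710 before it. For Tcf3 the difference was 0.13 (SE 0.10; adjusted p 0.9998), and 0.13 with the block (SE 0.09; adjusted p 0.877), with ratios of 1.09 and 1.08 after commitment and 0.985 and 0.998 before it. Neither difference was called over all genes.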

How the results depend on the processing

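Without the replicate block 638 of 696 recomputed log2 fold changes of the 6 genes kept direction and side of the threshold, 18 lost and 17 gained a call and 23 changed sign; with the block the counts were 306 of 336, 13, 3 and 14. The number of the 6 genes called for sgStat5 after commitment was 0, and 1 (Tcf12) by DESeq2 or with the replicate block. Averaged over the gates it was 0, against 1 by DESeq2 and 2 with the block. Between the gates it was 1 in sgStat5 cells, against 3 by DESeq2, 3 with the block and 0 in a fit of the 4 libraries compared, and 0 in control cells, against 1 by DESeq2 and 2 with the block. Leaving out 1 library gave 0 to 1 in sgStat5 cells and 0 to 2 in the average over the arms, and with the block 0 to 2 in control cells and 1 to 2 for the guides averaged over the gates. Between the gates averaged over the arms, Id3 passed without the block by DESeq2 (adjusted p 0.00143) and in edgeR without a filter (0.0182). It also passed by limma on log2(FPKM + 1) (0.0453) and log2(FPKM + 0.1) (0.0479). Id3 did not pass there with the other scalings or the 5 CPM filter, and passed in 0 of 8 unblocked fits without a library. Over all genes, edgeR called 235 (post-commitment), 37 (pre-commitment) and 397 (averaged) for the guides, against 629, 247 and 920 by DESeq2 and 1132, 321 and 1465 with the block. Between the gates it called 134 in sgStat5 cells, 2 in control cells and 1550 averaged, against 1684, 578 and 3062 by DESeq2, 3144, 1507 and 4631 with the block, and 2 and 0 in the arms with the 4 libraries compared alone (4 and 3 for the guides after and before commitment). Without a filter the counts in the same order were 340, 114, 535, 760, 83 and 2191, and with a minimum of 5 CPM they were 241, 36, 406, 231, 2 and 1754. Leaving out 1 library gave 58 to 149, 0 to 32, 143 to 301, 0 to 516, 0 to 2 and 3 to 2536. With the block these ranges were 385 to 1182, 94 to 348, 723 to 1263, 836 to 3119, 87 to 1702 and 2687 to 4371, the lowest in sgStat5 cells and for the guides after commitment being without post-commitment sgStat5 replicate 1 and the other lowest ones without pre-commitment control replicate 1. Other uncalled values that changed sign were Tcf3 for the guides before commitment (0.0051 with library totals), Id2 between the gates in sgStat5 cells (-0.015 with the block) and Tcf3 between the gates on average (-0.0014 without a filter). On leaving out a library the uncalled log2 fold changes that crossed 0 ranged, for the guides before commitment, from -1.98 to 0.30 for Id1, -0.19 to 0.45 for Id2 and -1.74 to 0.47 for Id3, and with the block from -0.015 to 0.29 for Id2 and -0.040 to 0.014 for Tcf3. For the guides on average Id3 ranged from -0.55 to 0.55 (-0.14 to 0.25 with the block). Between the gates the ranges were -1.68 to 0.60 for Id1 in control cells (-0.97 to 0.016 with the block), -3.74 to 0.17 for Id1 and -0.35 to 0.32 for Id2 in sgStat5 cells (Id2 -0.18 to 0.14 with the block) and -0.0077 to 0.022 for Tcf3 on average (-0.013 to 0.019 with the block). The Id1 difference of the guide effects ranged from -3.49 to 0.42. The cause was not tested for any of these. Id1 and Id3 had the lowest counts, with as few as 5 and 28 in a library, and the largest differences between replicate numbers.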
